A study of Sus scrofa with 60 samples.

Results

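The genes of the urea cycle and of glutamine-based ammonia disposal were followed in the liver of 60 pigs from late gestation to slaughter age. They comprised the 5 enzymes of the cycle proper (CPS1, OTC, ASS1, ASL and ARG1), the second arginase ARG2, the glutamine synthetase GLUL and the ammonia transporter RHBG. All probe-sets whose annotation named 1 of these genes and no other were taken, which gave 12 probe-sets of 8 genes, out of 6765 genes with a probe-set on the Affymetrix GeneChip Porcine Genome array. One probe-set each read CPS1, OTC, ASS1, ASL, ARG1 and RHBG in this selection, while ARG2 and GLUL had 3 each. Where a gene had several, they are numbered from the highest mean, and the first stands for the gene.

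All animals were German Landrace offspring of gilts on an adequate protein diet during gestation. They were grouped as 94 days post conceptionem (dpc), a fetal stage with 15 animals, and 1, 28 and 188 days post natum (dpn) with 15, 14 and 16 animals. According to the study's methods, pairs of sibs were used, in the fetal and newborn stages the lightest and the heaviest of a litter, and the fetuses came from a separate experiment. Each stage drew on 8 gilts. The pigs of 28 dpn, taken at weaning, and of 188 dpn had fasted overnight, which the methods do not state for the newborn. Litter, sex and weight of an animal are not in the labels and could not enter the tests, whose p-values treat animals as independent. Neighbouring stages are compared as periods. In period I the newborn of 1 dpn is set against the fetus, in period II the weaner of 28 dpn against the newborn, and in period III the pig of 188 dpn against the weaner.

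Ammonia set free from amino acids is taken up by a pair of systems in the mammalian liver. In rodents and humans the periportal hepatocytes, which blood reaches first, carry the urea cycle. There CPS1 and OTC make citrulline in the mitochondrion, and ASS1, ASL and ARG1 turn it into urea in the cytosol. A thin layer of perivenous hepatocytes at the outflow carries GLUL, which binds the remaining ammonia to glutamate, together with RHBG, a membrane channel for ammonia. ARG2 is the mitochondrial arginase and is better known from tissues other than liver. The arrays read whole liver, so fewer cells of a type and less RNA per cell cannot be told apart, and no position within the lobule was measured.

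The deposited values are linear intensities that had been scaled to a common trimmed mean. Levels are given as intensity or as log2(intensity + 16), and changes as the later minus the earlier stage on that log2 scale with the standard error (SE). Adjusted p-values are from limma with the Benjamini-Hochberg method over all probe-sets of a comparison, and a transcript was called at an adjusted p below 0.05. Levels of different probe-sets are not comparable with each other. The Tag control probe-sets, which have no target in the pig, had highest means of 5.86, 6.29, 5.73 and 5.84 at 94 dpc, 1, 28 and 188 dpn. The array medians averaged 170 ± 5.62, 149 ± 9.75, 117 ± 6.16 and 111 ± 5.75 in intensity (SD). Shortened transcripts raise the signal of 3' over 5' actin probe-sets, and this log2 actin ratio was 2.29 ± 0.34, 1.76 ± 0.31, 3.54 ± 0.46 and 4.01 ± 0.45 in the same order of stages. The GAPDH ratio had another course, with 0.99 ± 0.13, 0.38 ± 0.14, 0.77 ± 0.09 and 0.68 ± 0.10. A second pair of actin controls gave -0.84 ± 0.44, -1.29 ± 0.71, 0.39 ± 0.55 and 0.13 ± 0.68. A second GAPDH pair gave 1.47 ± 0.20, 0.96 ± 0.35, 1.02 ± 0.34 and 0.89 ± 0.32. Only the first actin pair was higher at 188 than at 28 dpn, and the actin ratio named below is that of this pair.

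ASS1 and ASL, the enzymes that build and split argininosuccinate, had the widest course among the enzymes of the cycle proper. Intensities of ASS1 were 4378, 7756 and 10508 at 94 dpc (lowest, median and highest animal), 17084, 35443 and 60911 at 1 dpn, 14356, 25152 and 42076 at 28 dpn and 36052, 43120 and 54825 at 188 dpn. Every fetus lay below every animal after birth. For ASL they were 855, 1179 and 1570 at 94 dpc, 1728, 3405 and 7406 at 1 dpn, 1969, 3047 and 7116 at 28 dpn and 4060, 6042 and 9138 at 188 dpn. Again no fetus reached the lowest animal of a later stage.

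CPS1, the entry enzyme, was already high before birth. Its intensities were 12656, 16224 and 20007 at 94 dpc, 12955, 21756 and 40069 at 1 dpn, 13147, 18365 and 24446 at 28 dpn and 12702, 20069 and 26858 at 188 dpn, so that all stages overlapped and shared nearly the same lowest value. OTC, which joins carbamoyl phosphate to ornithine, read 1934, 2652 and 3940 at 94 dpc, 1825, 2788 and 4540 at 1 dpn, 1114, 2234 and 3033 at 28 dpn and 1827, 3068 and 4678 at 188 dpn. The lowest OTC values were those of 28 dpn.

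ARG1, which releases urea from arginine, read 6667, 8124 and 10709 at 94 dpc, 7276, 12962 and 26840 at 1 dpn, 2937, 6149 and 16356 at 28 dpn and 9260, 15810 and 23252 at 188 dpn. Its spread at 28 dpn covered that of the fetuses on both sides. ARG2 probe-set 1 read 154, 377 and 1119 at 94 dpc, 1035, 2303 and 4474 at 1 dpn, 295, 551 and 1597 at 28 dpn and 731, 1474 and 3742 at 188 dpn. A peak at 1 dpn and a low value at 28 dpn were seen in ARG2 probe-set 2 as well, with mean log2 levels of 8.18 ± 0.61, 10.25 ± 0.65, 8.10 ± 0.72 and 9.34 ± 0.59 over the 4 stages (SD). ARG2 probe-set 3 was dimmer, with 7.33 at 1 dpn, where 9 of 15 animals exceeded the array median, and 5.78 to 6.41 at the other stages, near the Tag controls.

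GLUL probe-set 1 read 4187, 5795 and 9557 at 94 dpc, 3458, 6663 and 17011 at 1 dpn, 5398, 13799 and 19230 at 28 dpn and 3209, 5849 and 11071 at 188 dpn. The median was highest at 28 dpn, but the stages overlapped, with 5 of 14 animals of 28 dpn above every newborn and 11 of 14 above every animal of 188 dpn. RHBG read 67.5, 249 and 413 at 94 dpc, 134, 269 and 809 at 1 dpn, 379, 1107 and 1694 at 28 dpn and 215, 766 and 1905 at 188 dpn. It was therefore low in the fetus and the newborn and high at both later stages.

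**Figure D1:**
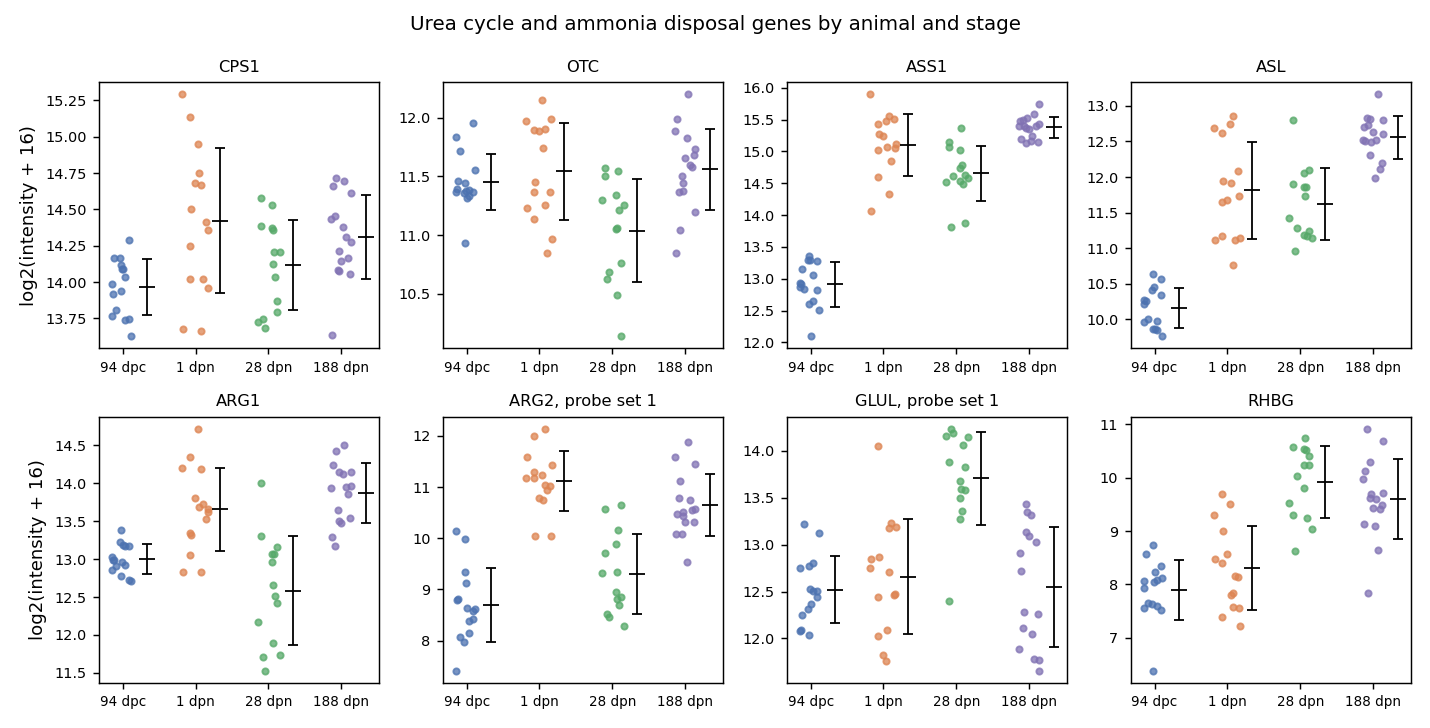
Log2(intensity + 16) of 8 genes in each of 60 animals by stage, with 1 point per animal and the mean and SD drawn to the right of the points. ASS1 and ASL of the fetuses lie below all later animals, and GLUL probe-set 1 has its highest mean, 13.71, at 28 dpn.

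Any difference among the 4 stages was found for all 8 genes, with adjusted p-values between 2.1e-25 (ASS1) and 0.0030 (CPS1). Such a difference was found for 93.2% of the 13844 probe-sets tested, so it does not set these genes apart. The stage means spanned 2.47 in ASS1, 2.42 in ARG2, 2.39 in ASL, 2.02 in RHBG, 1.29 in ARG1, 1.19 in GLUL, 0.52 in OTC and 0.46 in CPS1 on the log2 scale.

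Period I asks what changed between the late fetus and the newborn. Of the 8 genes 5 rose and 0 fell (median change 0.56), while 23.9% of all 12771 probe-sets rose and 41.1% fell. Among 5206 genes, each likewise read by its first probe-set, 29.8% rose and 35.6% fell. ASS1 rose by 2.19 ± 0.15, or 4.55-fold (adjusted p = 4.7e-14), and ASL by 1.65 ± 0.18, or 3.14-fold (adjusted p = 2.0e-09). In both the stages did not overlap, as for 9.99% of all probe-sets. ARG2 probe-set 1 rose by 2.42 ± 0.23 (adjusted p = 8.4e-11), with 13 of 15 newborns above every fetus, ARG2 probe-set 2 by 2.07 ± 0.22 (adjusted p = 9.0e-10) and ARG2 probe-set 3 by 0.92 ± 0.26 (adjusted p = 0.0023).

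The remaining genes of the cycle moved less over birth. ARG1 rose by 0.65 ± 0.14 (adjusted p = 0.00022), with 13 of 15 newborns above the fetal median, and CPS1 by 0.46 ± 0.14 (adjusted p = 0.0040), with 12 of 15. OTC differed by 0.09 ± 0.12 (adjusted p = 0.52) and GLUL probe-set 1 by 0.14 ± 0.18 (adjusted p = 0.49), and both changed sign, to -0.0031 and -0.03, after quantile normalization. RHBG differed by 0.41 ± 0.23 (adjusted p = 0.12). It passed the test after quantile normalization, at 0.60 (adjusted p = 0.036), and after centring each array on its median, at 0.57 (adjusted p = 0.038). The fetal level of RHBG was 7.90, beside 5.86 for the highest Tag control.

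Period II asks what changed between birth and weaning, and here ARG1, ARG2, OTC and ASS1 fell while RHBG and the first GLUL probe-set rose. Of the 8 genes 2 rose and 4 fell (median change -0.38), against 28.5% and 39.0% of 12976 probe-sets and 32.2% and 35.7% of 5335 genes. ARG2 probe-set 1 fell by 1.81 ± 0.24 (adjusted p = 1.1e-07), with 14 of 14 animals of 28 dpn below the newborn median. The other ARG2 probe-sets fell as well, by 2.14 ± 0.24 (probe-set 2, adjusted p = 4.6e-09) and 1.54 ± 0.26 (probe-set 3, adjusted p = 5.9e-06). ARG1 fell by 1.07 ± 0.22, which is 2.10-fold (adjusted p = 0.00011), with 13 of 14 below that median. OTC fell by 0.51 ± 0.15 (adjusted p = 0.0046) and ASS1 by 0.44 ± 0.17 (adjusted p = 0.019). CPS1 was -0.31 ± 0.15 (adjusted p = 0.073) and ASL -0.19 ± 0.21 (adjusted p = 0.43).

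The genes that rose in period II were those of the perivenous branch. RHBG rose by 1.61 ± 0.26, or 3.05-fold (adjusted p = 2.2e-06), with 14 of 14 animals of 28 dpn above the newborn median. GLUL probe-set 1 rose by 1.05 ± 0.20, or 2.07-fold (adjusted p = 2.9e-05), with 13 of 14 above it, whereas the second GLUL probe-set fell. None of the 8 genes had stages without overlap, which held for 11.4% of all probe-sets.

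Every period II call made on the first probe-set of a gene was lost under another scaling or with an RNA control as a covariate. Of 13 measured hepatocyte markers, such as ALB and TF, 10 fell and 2 rose in period II, and their summed intensity ranged from 370192 to 525677 at 28 dpn and from 482083 to 723133 at 1 dpn. Centred on these markers, ASS1 was -0.13 (adjusted p = 0.51), OTC -0.19 (adjusted p = 0.35), ASL 0.12 and CPS1 0.01, whereas the falls of ARG1 and ARG2 and the rises of GLUL and RHBG were still called. The call of ASS1 was also lost after quantile normalization, at -0.36 (adjusted p = 0.068), and after median centring, at -0.30 (adjusted p = 0.13). CPS1 passed the test after quantile normalization, at -0.44 (adjusted p = 0.021). The actin ratio did not overlap between 28 and 1 dpn, and with this ratio as a covariate ARG1, ARG2, OTC, GLUL and RHBG were no longer called (adjusted p = 0.27, 0.31, 0.59, 0.41 and 0.071). In that fit RHBG stood at 1.65 ± 0.67 and ARG1 at -0.91 ± 0.59, near their changes without the covariate but with wider errors, while ARG2 stood at -0.87 ± 0.61, GLUL at 0.61 ± 0.51 and OTC at -0.33 ± 0.40. The ratio of the second actin pair, which overlapped between 28 and 1 dpn, was not used as a covariate, nor were the GAPDH ratios. The part of transcript length in these changes cannot be told apart from stage.

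Period III asks what changed between weaning and slaughter age, and ARG1, ARG2, ASS1 and OTC, which had fallen in period II, rose. Of the 8 genes 5 rose and 1 fell (median change 0.62), against 15.5% and 24.1% of 12568 probe-sets and 17.5% and 28.3% of 5255 genes. ARG1 rose by 1.29 ± 0.20, or 2.44-fold (adjusted p = 4.7e-06), ARG2 probe-set 1 by 1.36 ± 0.24 (adjusted p = 3.4e-05) and ASL by 0.93 ± 0.15 (adjusted p = 5.6e-06). ASS1 rose by 0.72 ± 0.12 (adjusted p = 9.4e-06). In all 4 genes 16 of 16 animals of 188 dpn lay above the median of 28 dpn. OTC rose by 0.52 ± 0.14 (adjusted p = 0.0032), with 14 of 16 above it.

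GLUL probe-set 1 fell by 1.16 ± 0.20 in period III, which is 2.23-fold (adjusted p = 2.4e-05), with 16 of 16 animals of 188 dpn below the median of 28 dpn. RHBG stood at -0.32 ± 0.25 (adjusted p = 0.32) and CPS1 at 0.19 ± 0.11 (adjusted p = 0.17). CPS1 passed the test after median centring, at 0.29 (adjusted p = 0.038), and changed sign after quantile normalization and when centred on the hepatocyte markers. None of the 8 genes had stages without overlap, as 1.24% of all probe-sets did. Of the 13 hepatocyte markers 9 rose and 1 fell in this period, with a summed intensity of 414542 to 641629 at 188 dpn. Centred on them, OTC was at 0.32 (adjusted p = 0.12).

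**Figure D2:**
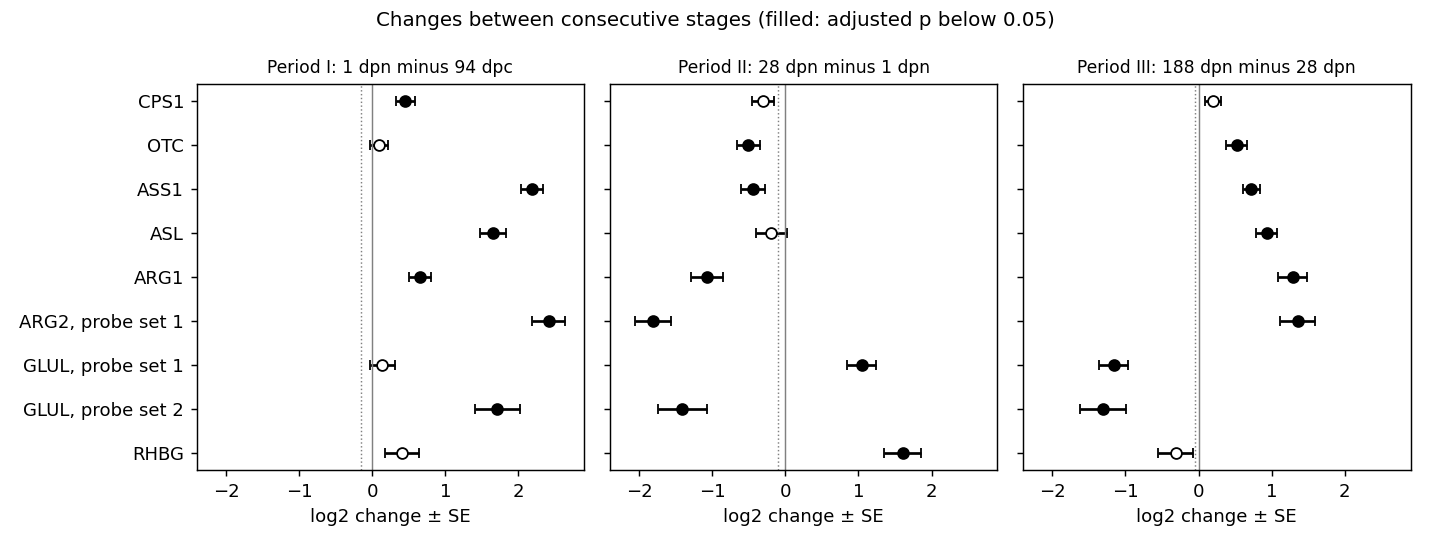
Log2 change ± SE of 9 probe-sets of the 8 genes in each period, later minus earlier stage, with filled points at an adjusted p below 0.05, a solid line at 0 and a dotted line at the median change of all probe-sets tested. In period II GLUL probe-set 1 and RHBG lie at 1.05 and 1.61, while ARG1 lies at -1.07.

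With the arrays as scaled by the authors, most probe-sets were slightly lower at the later stage, and the cause of this shift was not tested. The median change over all probe-sets was -0.15 in period I, -0.10 in period II and -0.04 in period III. After quantile normalization it was -0.04, 0.03 and 0.01, and after median centring 0.01, 0.05 and 0.05. Relative to the deposited medians, ASS1 was 2.33 higher over period I, and RHBG 1.71 and GLUL probe-set 1 1.15 higher over period II. Calls that rose and fell numbered 3055 and 5243 in period I as deposited, 3760 and 4248 after quantile normalization and 4105 and 3853 after median centring. They numbered 3697 and 5065 in period II, against 4626 and 4176 and then 4661 and 4088, and 1951 and 3023 in period III, against 2306 and 2524 and then 2920 and 2192.

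In a single fit over all 4 stages, the order of the levels could be read for each gene. The difference was called for 62.4% of probe-sets between 1 dpn and 94 dpc, 76.8% between 28 dpn and 94 dpc, 79.9% between 188 dpn and 94 dpc, 67.6% between 28 and 1 dpn, 73.3% between 188 and 1 dpn and 35.5% between 188 and 28 dpn. ASS1 and ASL had the order 94 dpc, 28 dpn, 1 dpn and 188 dpn from low to high. The top pair was not called different in ASS1 (0.28 ± 0.13, adjusted p = 0.055), nor were 28 and 1 dpn in ASL (-0.19 ± 0.17, adjusted p = 0.32). Over the whole span ASS1 was 5.52-fold and ASL 5.25-fold higher at 188 dpn than at 94 dpc.

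ARG1 and OTC shared another order, with 28 dpn lowest, then 94 dpc, 1 dpn and 188 dpn. At 28 dpn ARG1 stood at -0.42 ± 0.18 relative to 94 dpc (adjusted p = 0.032) and OTC at -0.41 ± 0.13 (adjusted p = 0.0048). The mean levels at 188 and 1 dpn were not called different in ARG1 (0.22 ± 0.17, adjusted p = 0.26) or OTC (0.02 ± 0.13, adjusted p = 0.92), nor were those of OTC at 1 dpn and 94 dpc (adjusted p = 0.56). In CPS1, with the order 94 dpc, 28 dpn, 188 dpn and 1 dpn, no neighbours were called different (adjusted p between 0.24 and 0.40), while 188 dpn lay above 94 dpc by 0.34 ± 0.12 (adjusted p = 0.0096).

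RHBG increased in the order 94 dpc, 1 dpn, 188 dpn and 28 dpn. Among neighbours only the middle pair was called different, with 188 dpn above 1 dpn by 1.29 ± 0.24 (adjusted p = 3.8e-06), and RHBG at 188 dpn was 3.25-fold that of the fetus. GLUL probe-set 1 was not called different among 94 dpc, 188 dpn and 1 dpn (adjusted p of 0.54 to 0.89) and was higher at 28 dpn than at each of them. ARG2 probe-set 1 was lowest at 94 dpc and 0.60 ± 0.24 higher at 28 dpn (adjusted p = 0.023), but ARG2 probe-set 2 gave -0.07 ± 0.23 for the same pair (adjusted p = 0.78).

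The probe-sets of GLUL did not agree on its course. GLUL probe-set 2 read 535, 1408 and 2713 at 94 dpc, 1341, 5146 and 13259 at 1 dpn, 464, 1537 and 5335 at 28 dpn and 314, 584 and 2249 at 188 dpn. Its peak was thus at 1 dpn and not at 28 dpn. It rose by 1.71 ± 0.30 in period I (adjusted p = 1.1e-05), fell by 1.41 ± 0.34 in period II (adjusted p = 0.00053), where GLUL probe-set 1 rose, and fell by 1.30 ± 0.32 in period III (adjusted p = 0.0013), where both fell. GLUL probe-set 3 stayed between 6.09 and 6.36 on the log2 scale, near the Tag controls, and did not pass the filter on low values in any period.

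The gap between both GLUL readings itself shifted with stage. Probe-set 2 minus probe-set 1 was -2.14 ± 0.76 in the fetus, -0.56 ± 0.47 in the newborn, -3.02 ± 0.66 at 28 dpn and -3.16 ± 0.55 at 188 dpn (SD), so that the gap was smallest in the newborn, the stage with the lowest actin ratio. Within a stage both readings followed each other after birth, with r = 0.92 at 1 dpn, 0.78 at 28 dpn and 0.78 at 188 dpn, and with 0.32 at 94 dpc. The gap and the actin ratio had r between -0.54 and -0.15 within the 4 stages, and 0 of these relations passed the test. Which reading follows the GLUL mRNA was not tested, and the rise of GLUL in period II therefore rests on 1 of 2 detected probe-sets, its fall in period III on both.

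**Figure D3:**
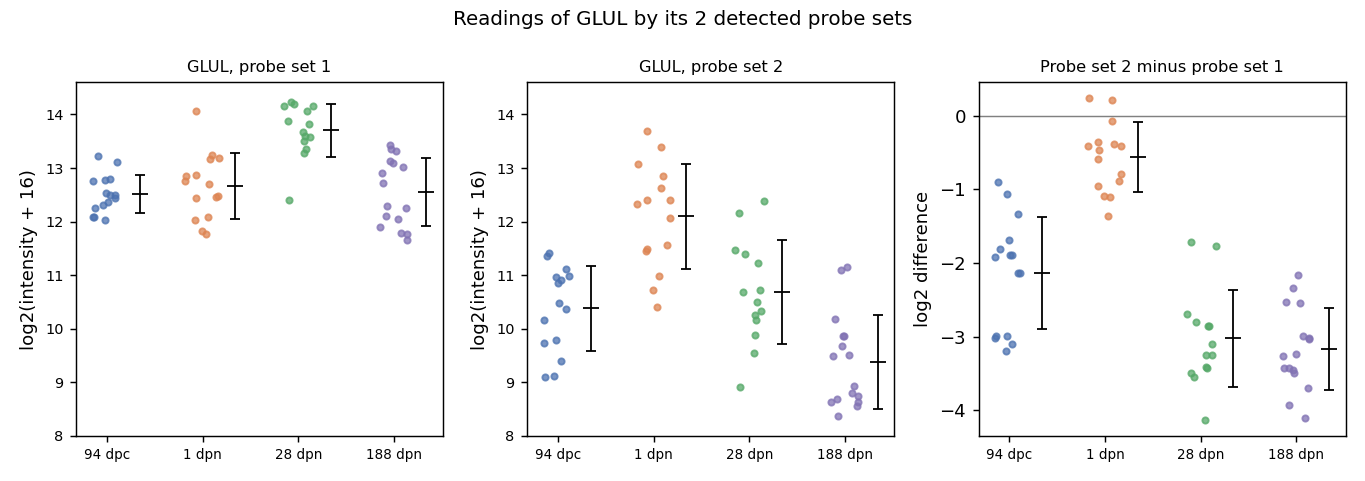
Log2(intensity + 16) of both detected GLUL probe-sets and their log2 difference by stage, with 1 point per animal and the mean and SD to the right. Probe-set 1 has its highest mean at 28 dpn and probe-set 2 at 1 dpn, and the mean difference is -0.56 at 1 dpn and -3.02 at 28 dpn.

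The balance of periportal to perivenous genes was described as the log2 difference of a pair of genes in the same animal, of which only the change between stages can be read. ARG1 minus RHBG was 5.10 ± 0.72 in the fetus, 5.35 ± 0.87 in the newborn, 2.67 ± 0.75 at 28 dpn and 4.27 ± 0.92 at 188 dpn. OTC minus RHBG was 3.55 ± 0.48, 3.23 ± 0.80, 1.12 ± 0.85 and 1.96 ± 0.72 in the same order. All 5 cycle enzymes had their lowest difference from RHBG at 28 dpn. Each subtracts the same RHBG probe-set, which had its highest mean at that stage, so the 5 are not separate results. For ASS1 the difference was 4.74 ± 0.60 at 28 dpn and 5.01 ± 0.60 in the fetus, and for ASL 1.71 ± 0.54 and 2.26 ± 0.54. With GLUL probe-set 1 in place of RHBG, ARG1 minus GLUL was 0.48 ± 0.49, 1.00 ± 1.04, -1.12 ± 1.15 and 1.32 ± 0.83. CPS1 and OTC were likewise lowest against GLUL probe-set 1 at 28 dpn, whereas ASS1 and ASL were lowest in the fetus, with ASS1 minus GLUL at 0.95 ± 0.79 at 28 dpn and 0.39 ± 0.51 at 94 dpc, and ASL minus GLUL at -2.09 ± 0.96 and -2.36 ± 0.50. With GLUL probe-set 2, no cycle enzyme was lowest at 28 dpn. CPS1, OTC, ASL and ARG1 were then lowest in the newborn and ASS1 in the fetus, though ASL was -0.28 ± 1.41 in the newborn and -0.22 ± 0.88 in the fetus. ARG1 minus GLUL probe-set 2 was 1.56 ± 1.38 in the newborn, 1.90 ± 1.48 at 28 dpn and 4.49 ± 0.96 at 188 dpn. The 5 cycle enzymes CPS1, OTC, ASS1, ASL and ARG1 had a median change of 0.65 in period I, -0.44 in period II and 0.72 in period III.

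The spread between animals of a stage is given as a description, with no test. For ARG1 the SD was 0.20 in the fetus, 0.54 in the newborn, 0.72 at 28 dpn and 0.39 at 188 dpn, and its highest animal at 28 dpn was 5.54-fold its lowest. CPS1 had an SD 2.58 times its fetal value at 1 dpn, ARG1 2.75 times and ASL 2.41 times, while the median ratio over all 13844 probe-sets was 1.35. The ratio was 1.71 in OTC and in GLUL probe-set 1, 1.39 in ASS1 and in RHBG and 0.80 in ARG2 probe-set 1. In the fetus 17.7% of probe-sets had an SD up to that of CPS1 and in the newborn 70.6%. These shares were 19.1% and 76.2% for ARG1 and 49.3% and 87.2% for ASL, so the ratios of CPS1 and ARG1 start from low fetal SDs. ASS1 had its narrowest spread at slaughter age, with an SD of 0.17 at 188 dpn. Only 3.40% of probe-sets had an SD as low as that at this stage. That share is over probe-sets of all signal levels and was not matched to the high intensity of ASS1. The fetuses and the newborns are both sets of light and heavy sibs, and the part of weight in the spread was not tested.

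Whether the genes moved together from animal to animal was examined within each stage. The 15 pairs of CPS1, ASS1, ASL, ARG1, GLUL and RHBG in 4 stages gave 60 relations, and 24 more were added after the values had been seen, so that p-values were adjusted over 84. Of the first 60, 14 passed. Sibs share a litter, so animals are not fully independent, and p-values from 100000 permutations do not take this into account.

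In the newborn all 6 pairs of the cycle enzymes CPS1, ASS1, ASL and ARG1 passed, with r between 0.78 and 0.90. CPS1 and ASL gave r = 0.90 (permutation p = 1e-05, the smallest these permutations can give, adjusted p = 0.00042) and rho = 0.85 (permutation p = 0.00015, adjusted p = 0.0032), and r = 0.87 without the 2 animals farthest from the median of CPS1. The newborn highest in CPS1, at 40069, had the highest ASS1 as well, at 60911, and the newborn lowest in CPS1, at 12955, had the lowest ASL, at 1728. At 94 dpc only ASS1 and ASL passed among these 6 pairs (r = 0.83, adjusted p = 0.0018), at 28 dpn CPS1 and ASS1 (r = 0.66, adjusted p = 0.044) and ASL and ARG1 (r = 0.83, adjusted p = 0.0028), and at 188 dpn CPS1 and ARG1 (r = 0.73, adjusted p = 0.0070). Whether r differed between stages was not tested.

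Of the 16 relations of GLUL probe-set 1 with CPS1, ASS1, ASL and ARG1, 2 passed, both at 28 dpn and both negative. The r of all 16 was below 0, from -0.85 to -0.03, and OTC was not among the genes correlated. ASL and GLUL gave r = -0.85 (permutation p = 0.00038, adjusted p = 0.0032) and rho = -0.69 (permutation p = 0.0079, adjusted p = 0.047), and ARG1 and GLUL gave r = -0.79 (permutation p = 0.00049, adjusted p = 0.0037) and rho = -0.74 (permutation p = 0.0035, adjusted p = 0.025). One animal of 28 dpn, number 10, had at once the highest ASL, 7116, the highest ARG1, 16356, and the lowest GLUL, 5398. Without the 2 animals farthest from the median of ASL or ARG1, r was -0.65 and -0.62. With GLUL probe-set 2, 15 of 16 relations were negative, from -0.63 to 0.16, and 0 passed.

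RHBG and GLUL probe-set 1 passed at 28 dpn alone, where they gave r = -0.72 (permutation p = 0.0028, adjusted p = 0.015) and rho = -0.81 (adjusted p = 0.0090), and r = -0.77 without the 2 farthest animals. At the other stages r was 0.32 at 94 dpc, 0.08 at 1 dpn and -0.10 at 188 dpn. With the cycle enzymes RHBG had a positive r in 12 of 16 relations, and only that with ARG1 at 94 dpc passed, as a negative one (r = -0.72, adjusted p = 0.011, with rho = -0.63 at an adjusted p = 0.059).

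**Figure D4:**
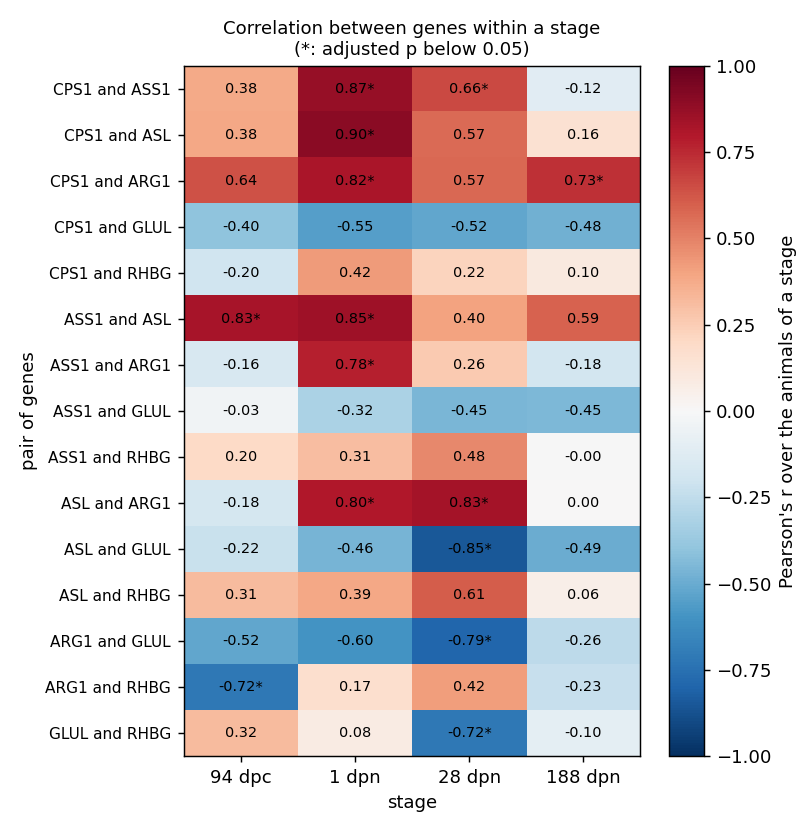
Pearson's r over the animals of a stage for 15 pairs of genes (rows) and 4 stages (columns), with an asterisk at an adjusted p below 0.05. All pairs of CPS1, ASS1, ASL and ARG1 carry an asterisk at 1 dpn, and GLUL is negative with each of them at every stage.

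The transcripts most like CPS1, ASS1, ASL, ARG1, GLUL and RHBG were looked up among 5491 genes, and those most like OTC and ARG2 were not. After the stage means had been subtracted, CPS1 was most like CTH, the lyase that frees cysteine and ammonia from cystathionine (r = 0.83 over 60 animals), OAT, which links ornithine to glutamate (0.69), and ARG1 (0.67). ASS1 was most like ALDH1L1, a folate enzyme (0.82), ACY1, which deacetylates amino acids (0.74), and ASL (0.68). ASL was most like HOGA1 of hydroxyproline breakdown (0.78), ALDH1L1 (0.77) and DCAF11 (0.72), and ARG1 was most like CTH (0.71), CPS1 (0.67) and ACADSB (0.63). GLUL was most like WLS, which carries Wnt proteins to the cell surface (0.65), ATP6V1G1 (0.55) and FUT1 (0.53). The values of RHBG were lower, with EIF2B4 (0.59), SULT1A3 (0.54) and ANKRD9 (0.51).

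With the stage means left in, the likeness mainly followed the course over the stages. ASS1 was most like ACY1 (0.97) and the respiratory chain subunits COX6A1 (0.95) and NDUFB4 (0.94), and ASL most like ASS1 (0.92), GCDH (0.92) and GOT1 (0.92). CPS1 was again most like CTH (0.79), before ARG1 (0.66) and NDFIP2 (0.62). ARG1 was most like AHCY (0.75), RDH11 (0.68) and NDFIP2 (0.68), GLUL most like ZNF706 (0.70), CLIC1 (0.67) and TMSB10 (0.66), and RHBG most like PIGR (0.81), MRPL14 (0.80) and PSMD3 (0.79). These values describe 60 arrays that share their scaling and carry no test.

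Genes that feed the cycle were taken from lists drawn up with earlier results of these data known. Of 9 cofactor and carrier genes only SLC25A12, a mitochondrial aspartate and glutamate carrier, was among the genes read here. It rose by 0.46 ± 0.14 in period I (adjusted p = 0.0041) and fell by 1.20 ± 0.14 in period II (adjusted p = 5.8e-09) and by 0.78 ± 0.23 in period III (adjusted p = 0.0071). Its level at 188 dpn was 6.77 ± 0.84, below the mean log2 array median of 6.99 at that stage. SLC25A13, also on this list, was not read, so the supply of aspartate to ASS1 cannot be judged from these values.

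The list of ammonia release and fixation was read by 5 genes, of which GLUL, itself among the 8 genes, fixes ammonia. SDS, which deaminates serine, had a level of 5.51 ± 0.64 in the fetus, which is below the highest Tag control, and of 6.95 ± 2.21 in the newborn, 8.02 ± 0.43 at 28 dpn and 10.46 ± 1.02 at 188 dpn. The gene rose by 2.44 ± 0.28 in period III (adjusted p = 3.5e-08), beside a value of 1.06 ± 0.56 in period II (adjusted p = 0.094). CTH rose by 1.96 ± 0.19 in period I (adjusted p = 1.9e-10), fell by 0.88 ± 0.22 in period II (adjusted p = 0.00064) and rose by 0.59 ± 0.17 in period III (adjusted p = 0.0063), as ARG1 did. AMT of glycine cleavage rose by 0.43 ± 0.16 in period I (adjusted p = 0.020). ASRGL1, an asparaginase, fell by 0.29 ± 0.09 in period I (adjusted p = 0.0053) and by 0.68 ± 0.11 in period II (adjusted p = 2.0e-06). In all, 2 of 4 tested genes of this list rose and 1 fell in period I, 1 and 2 of 5 in period II and 2 and 1 of 5 in period III, with median changes of 0.28, -0.26 and 0.01. The gene that rose in period II and the gene that fell in period III were both GLUL, on its first probe-set. Of all genes tested, 29.8% rose and 35.6% fell in period I, 32.2% and 35.7% in period II and 17.5% and 28.3% in period III.

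Transaminases, which collect amino groups in glutamate and aspartate, had 4 of 8 genes rising and 1 falling in period I, 3 and 2 of 9 in period II, and 7 and 1 of 9 in period III. Over all genes tested, 29.8% rose and 35.6% fell in period I, 32.2% and 35.7% in period II and 17.5% and 28.3% in period III. The list median was 0.28, 0.15 and 0.68 on the log2 scale, beside medians of -0.06, -0.03 and -0.06 over all genes. In period III GPT rose by 1.23 ± 0.14 (adjusted p = 5.2e-08), GOT1 by 1.16 ± 0.15 (adjusted p = 3.3e-07) and OAT by 0.95 ± 0.18 (adjusted p = 6.4e-05), while BCAT1 fell by 0.60 ± 0.19 (adjusted p = 0.012). GOT1 and OAT had risen in period I by 1.38 ± 0.13 and 1.44 ± 0.25. PSAT1 of serine synthesis fell by 1.54 ± 0.16 in period I (adjusted p = 5.6e-10) and rose in both later periods, by 0.70 ± 0.17 and 0.68 ± 0.08. AGXT2 rose by 0.80 ± 0.08 in period II (adjusted p = 5.6e-10), and GOT2 fell by 0.48 ± 0.09 there (adjusted p = 1.5e-05).

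Genes for other uses of arginine, ornithine and glutamine moved in both directions, with 3 rising and 5 falling of 13 in period I, 1 and 3 in period II and 4 and 6 in period III, and median changes of -0.14, 0.02 and -0.05. The shares of all genes that rose and fell were 29.8% and 35.6% in period I, 32.2% and 35.7% in period II and 17.5% and 28.3% in period III. ALDH18A1, which turns glutamate towards proline and ornithine, fell by 0.42 ± 0.09, 1.71 ± 0.16 and 2.40 ± 0.16 over the periods (adjusted p = 9.0e-05, 9.2e-11 and 3.9e-13), to a level of 8.37 ± 0.29 at 188 dpn. PYCR1, the last step of proline synthesis, fell by 0.91 ± 0.14, 0.66 ± 0.15 and 1.21 ± 0.22, so that both proline synthesis genes fell in every period. SLC7A1, a carrier of arginine and ornithine, fell by 1.15 ± 0.15 in period I (adjusted p = 7.4e-08) and by 0.85 ± 0.13 in period III (adjusted p = 2.4e-06). Of the genes that rose, ALDH4A1, which breaks proline down to glutamate, rose by 0.63 ± 0.10 in period I and 0.61 ± 0.15 in period III. GAMT, which makes creatine from an arginine product, rose by 0.39 ± 0.11, 0.45 ± 0.09 and 0.50 ± 0.07. SLC3A2, a subunit of amino acid carriers, fell by 1.08 ± 0.13 in period II (adjusted p = 1.4e-08) and rose by 0.34 ± 0.13 and 0.33 ± 0.09 in the periods before and after it.

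**Figure D5:**
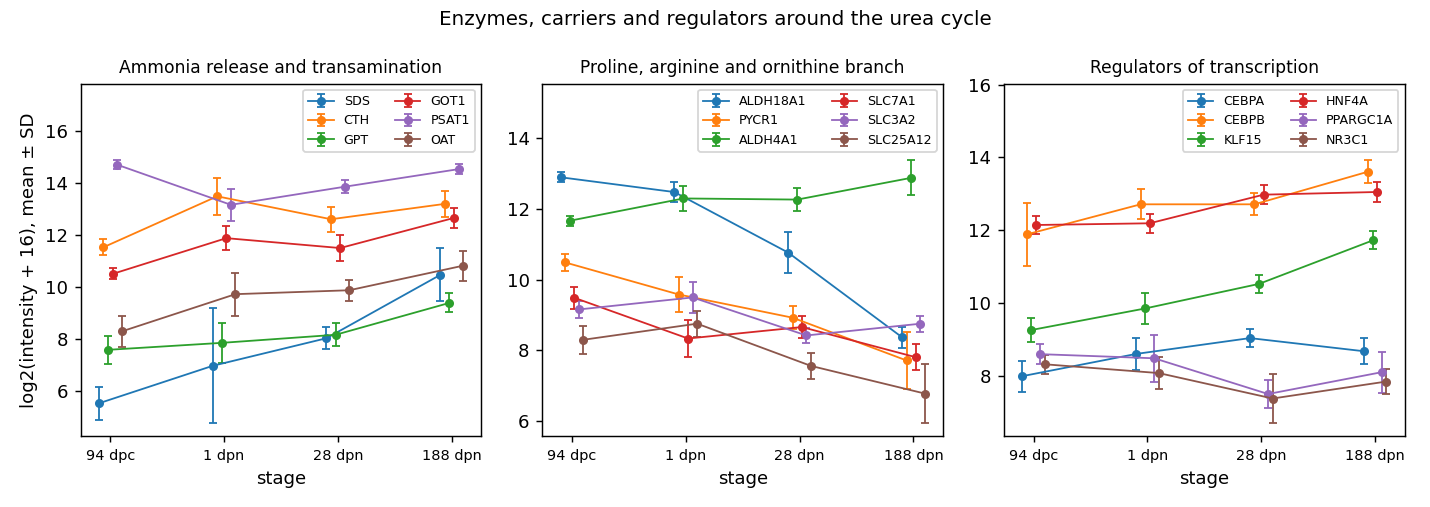
Mean ± SD of log2(intensity + 16) by stage for genes that release or transfer amino groups, genes of the proline, arginine and ornithine branch, and regulators of transcription, with n of 15, 15, 14 and 16 animals. ALDH18A1 lies at 8.37 at 188 dpn and at 12.90 at 94 dpc, and SDS lies at 10.46 and at 5.51.

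Regulators known from rodents to act on urea cycle genes or on amino acid breakdown had 4 rising and 4 falling of 14 in period I, 4 and 5 of 14 in period II and 7 and 2 of 13 in period III, with medians of -0.03, 0.01 and 0.41. Among all genes tested, 29.8% rose and 35.6% fell in period I, 32.2% and 35.7% in period II and 17.5% and 28.3% in period III. KLF15, a factor of amino acid breakdown, rose in each period, by 0.59 ± 0.14, 0.68 ± 0.13 and 1.20 ± 0.09 (adjusted p = 0.00038, 4.4e-05 and 3.3e-11). CEBPB rose by 0.83 ± 0.23 in period I (adjusted p = 0.0026) and by 0.90 ± 0.11 in period III (adjusted p = 1.6e-07), with 0.00039 ± 0.13 in period II. CEBPA rose by 0.61 ± 0.15 in period I and 0.44 ± 0.13 in period II and fell by 0.36 ± 0.11 in period III. HNF4A rose by 0.79 ± 0.10 in period II (adjusted p = 7.4e-08), as did SIRT3, a mitochondrial deacetylase, by 0.74 ± 0.11. PPARGC1A, a coactivator of the fasting response, fell by 0.98 ± 0.19 in period II (adjusted p = 3.4e-05) and rose by 0.60 ± 0.17 in period III (adjusted p = 0.0051), and the glucocorticoid receptor NR3C1 fell by 0.70 ± 0.20 and rose by 0.47 ± 0.18 in the same periods. FBXO32, a ubiquitin ligase subunit and no transcription factor, fell by 1.67 ± 0.23 in period I.

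Other genes of the same zones were counted beside the members. For comparison, 29.8% of all genes rose and 35.6% fell in period I, 32.2% and 35.7% in period II and 17.5% and 28.3% in period III. Of the periportal list 5 of 6 tested genes rose and 0 fell in period I, 4 and 2 of 8 in period II and 5 and 1 of 8 in period III (medians 0.42, 0.70 and 0.26). PCK1, which starts glucose synthesis, rose in all 3 periods, by 1.59 ± 0.32, 0.47 ± 0.12 and 0.83 ± 0.10. In period II PIGR rose by 2.45 ± 0.26 and CDH1 by 1.03 ± 0.12, both without overlap of the stages, and IGF1 by 0.93 ± 0.24. The 2 that fell there, as ARG1 and OTC did, were ALB, the main plasma protein, and APOC2, an apolipoprotein. They fell by 0.79 ± 0.09 (adjusted p = 2.2e-09) and 0.36 ± 0.08 (adjusted p = 0.00017). ALB is also 1 of the 13 hepatocyte markers, of which 10 fell in period II. Of the perivenous list 3 of 11 rose and 3 fell in period I, 7 and 3 of 13 in period II and 6 and 2 of 13 in period III (medians -0.12, 0.26 and 0.38). In period I the tyrosine-degrading enzyme HPD rose by 7.70 ± 0.29 (adjusted p = 1.7e-20) and CYP2E1, a cytochrome P450, by 5.59 ± 0.40 (adjusted p = 1.5e-13), both without overlap of the stages. GULO, known from other mammals as the last enzyme of vitamin C synthesis, fell by 2.20 ± 0.18 in that period (adjusted p = 2.1e-12). CTNNB1 fell by 1.35 ± 0.11 (adjusted p = 1.8e-12), like GULO without overlap, and SLC1A4, a carrier of neutral amino acids, by 0.97 ± 0.12 (adjusted p = 1.7e-08). The largest rise of this list in period II was that of CYP7A1, by 2.16 ± 0.54, from a newborn level of 5.75, below the highest Tag control. CYP2E1 and CYP27A1 rose in period II by 0.54 ± 0.13 and 1.05 ± 0.10, as GLUL probe-set 1 and RHBG did. Both rose further in period III, by 0.38 ± 0.07 and 0.71 ± 0.08, in which GLUL fell. GULO rose by 1.40 ± 0.24 in period II (adjusted p = 6.1e-06) and fell by 1.08 ± 0.19 in period III (adjusted p = 4.3e-05), the directions of GLUL probe-set 1 in those periods. SLC1A4 fell in both, by 0.60 ± 0.12 and 0.65 ± 0.09. HPD fell by 3.65 ± 0.21 in period II, to a level of 10.19 at 28 dpn, against 13.84 in the newborn and 6.14 in the fetus.

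Other cell types changed at the same time. Their counts stand beside 29.8% of all genes that rose and 35.6% that fell in period I, 32.2% and 35.7% in period II and 17.5% and 28.3% in period III. All 7 erythroid markers fell in period I (median change -2.83), with a summed intensity of 1376 to 5145 at 1 dpn and 10273 to 45784 at 94 dpc, and all 7 neutrophil and myeloid markers fell too (median -1.21). None of the 7 erythroid markers was at background at either stage. Of 13 hepatocyte markers 4 rose and 1 fell in the same period, with a median of 0.04, and centred on them the 5 calls of period I were kept. In period II 5 of 5 tested neutrophil and myeloid markers fell, and in period III 5 of 7 macrophage markers fell and 0 rose. The part of cells other than hepatocytes in the levels of the 8 genes was not tested.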

How the data were processed

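The deposited values are an intensity for each probe-set on an array, which the authors left linear and scaled, and for which the submitters' processing notes name GCOS 1.1.1. The mean after trimming 2% at each end was 500.13 to 500.22 on every array. The study's own tests used GCRMA values, which were not used here. Each intensity was raised by 16 and taken to log2. Of 24123 probe-sets, 124 controls were left out. The filter kept a probe-set that exceeded the array median in 50% or more of the animals of either stage in a comparison. Symbols came from the platform annotation, with 1 gene for 10069 probe-sets, and the probe-set of highest mean stood for a gene.

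Consecutive stages were compared with limma 3.58.1 in R 4.3.3 (two-sided, Benjamini-Hochberg), the 4 stages with its moderated F statistic. The fit was tested on simulated data. The study's mixed model has sex, mother and weight, which the labels do not give. Correlations were tested with 100000 permutations (two-sided) in numpy 2.4.6. Alternatives changed the normalization, centring, pseudocount, filter, fit, arrays and probe-set. The number of arrays limits the precision. Members, lists and the named genes were chosen with earlier results of these data known. The named genes were all member probe-sets, all measured carrier genes and the 3 genes most like each member except OTC and ARG2. From the other lists they were drawn from up to 3 called genes per list, period and direction with the largest change. Not all of these are named, and genes drawn for a period are also given in others. No genome or sequence was used.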

Additional observations from a re-analysis of the deposited data

How the results depend on the processing

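Of 24 changes of the 8 genes over 3 periods, 17 were called, and 10 of these kept their call and direction under every alternative run. These were ASS1, ASL, ARG1, ARG2 and CPS1 in period I and ASS1, ASL, ARG1, ARG2 and GLUL in period III. No call of period II was among them. Pseudocounts of 1 and 64, no filter, the array median as a minimum in every animal (23 changes tested), a variance trend with robust fit, leaving out, per stage, the array least correlated with the others and a permutation test (100000 resamples) moved none of the 24 across the threshold. CPS1 in period II passed with all arrays in 1 fit, at -0.31.

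Quantile normalization turned the sign of changes that were not called, to -0.027 for GLUL and -0.0031 for OTC in period I and to -0.010 for CPS1 in period III. It weakened ASS1 in period II (-0.36) and made CPS1 in period II (-0.44) and RHBG in period I (0.60) pass. Median centring weakened ASS1 in period II (-0.30) and made RHBG in period I (0.57) and CPS1 in period III (0.29) pass. Centring on hepatocyte markers, themselves lower at 28 dpn, turned ASL (0.12) and CPS1 (0.0097) in period II and CPS1 (-0.0046) in period III, and weakened ASS1 (-0.13) and OTC (-0.19) in period II and OTC (0.32) in period III. Over all probe-sets this centring gave 2527 that rose and 5338 that fell in period I, 5851 and 2940 in period II, and 717 and 5078 in period III, with median changes of -0.20, 0.22 and -0.24. With the actin ratio as a covariate, ARG1 (-0.91), ARG2 (-0.87), OTC (-0.33), GLUL (0.61) and RHBG (1.65) in period II lost their calls. The stages do not overlap in this ratio, and calls over all probe-sets then numbered 1366 that rose and 1707 that fell, against 3697 and 5065. The second GLUL probe-set gave 1.71 in period I and the opposite sign in period II, -1.41. The cause was not tested for these changes.

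No paired analysis was possible because the labels give no number that ties animals across stages. Litter, sex, weight, fasting and the separate fetal experiment could not be separated from stage or from the spread between animals.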
